A study of Mus musculus with 503 samples.

Results

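A set of 10 endothelial genes was followed across single perivascular cells of the mouse spinal cord: *Pecam1*, *Cldn5*, *Flt1*, *Cdh5*, *Ly6c1*, *Kdr*, *Tek*, *Tie1*, *Slco1a4* and *Abcb1a*. They were taken by symbol from the deposited counts, and all 10 were among its 56701 gene rows. Cells with 200 or more detected genes and under 20% mitochondrial counts were kept, which left 502 of 503 cells, and cells with high *Pecam1* were not removed. The animals were female adult mice of the genotype GLAST-CreERT2;R26R-tdTomato;Pdgfrb-eGFP, in which tamoxifen-activated Cre marks GLAST-expressing cells with tdTomato and the *Pdgfrb* promoter drives EGFP in pericytes, vascular smooth muscle cells and fibroblasts. The 4 groups were uninjured tdTomato+EGFP+ cells (77 and 81 on the 2 plates), uninjured tdTomato-EGFP+ cells (52 and 65), tdTomato+EGFP+ cells taken 3 days after a complete spinal cord crush (SCI; 88 and 34) and tdTomato-EGFP+ cells taken at the same time (58 and 47). The labels give all cells as female, whereas the study's reporting summary names both sexes for its sequencing, and the labels were followed. In these cells 4 Y-linked genes summed to at most 6 counts per sort and plate. All 4 groups carried all 3 transgenes, and the sort selected EGFP+ cells, not endothelial cells. No label names an animal, so each group counts as 1 sample. The differences therefore have neither a p-value nor a check against replicates.

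Endothelial cells line the inside of blood vessels and, in the spinal cord, are joined by tight junctions that form the blood-spinal cord barrier. Pericytes sit on the outer side of the same capillaries, in the shared basement membrane, and perivascular fibroblasts lie further out around larger vessels. *Pecam1* (CD31) and *Cdh5* (VE-cadherin) encode adhesion molecules of endothelial cell contacts, and *Cldn5* (claudin-5) is the main sealing protein of endothelial tight junctions in the nervous system. *Flt1* and *Kdr* encode the VEGF receptors 1 and 2, and *Tek* (Tie2) is the angiopoietin receptor that pairs with the related receptor *Tie1*. *Ly6c1* encodes a surface protein of capillary endothelium, and *Slco1a4* and *Abcb1a* encode an organic anion uptake transporter and the drug efflux pump P-glycoprotein of the barrier.

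The cells came from 4 plates that each held both sorted populations. Uninjured cells filled plates 209 and 213, and those taken after SCI filled plates 211 and 215. The effects of injury and of plate cannot be told apart, while the 2 sorts can be compared within a plate. Total counts per group were 43120473, 30210529, 31133429 and 26295382 in the order above, and the median cell held 208884 to 271660.5 counts. The 34 injured tdTomato+EGFP+ cells of plate 215 were shallow, their median being 14770 counts against 328802.5 on plate 211, so that plate 211 gave 94.6% of that group's counts. *Pdgfrb* had a count in 94.3%, 89.7%, 95.1% and 100% of the cells of the 4 groups, and *Slc1a3* (GLAST) stood at 189.9 and 207 CPM (counts scaled to 1000000 per group) in the tdTomato+ groups and at 28.6 and 10.6 CPM in the tdTomato- groups. Intervals below are exact 95% intervals that cover counting error only, and values per plate are given as a technical spread.

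In the uninjured cord the endothelial genes were abundant in both sorted populations. The 10 genes summed to 7424 CPM in the tdTomato+EGFP+ sort (plates 8694 and 6458) and to 7721 CPM in tdTomato-EGFP+ cells (plates 8026 and 7583). The median uninjured tdTomato+EGFP+ cell held 8857 CPM of them, with a range over cells from 0 to 37602, and the median tdTomato-EGFP+ cell held 8558 CPM, with a range from 0 to 25974. At 3 days after SCI the sum was 453 CPM in tdTomato+EGFP+ cells (plates 466 and 224) and 2533 CPM in tdTomato-EGFP+ cells (plates 2873 and 2238). The median cell then held 174 and 350.2 CPM, far below the group sums. Both injured groups lay below both uninjured groups on every plate, and the injured tdTomato+EGFP+ group lay lowest.

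**Figure D1:**
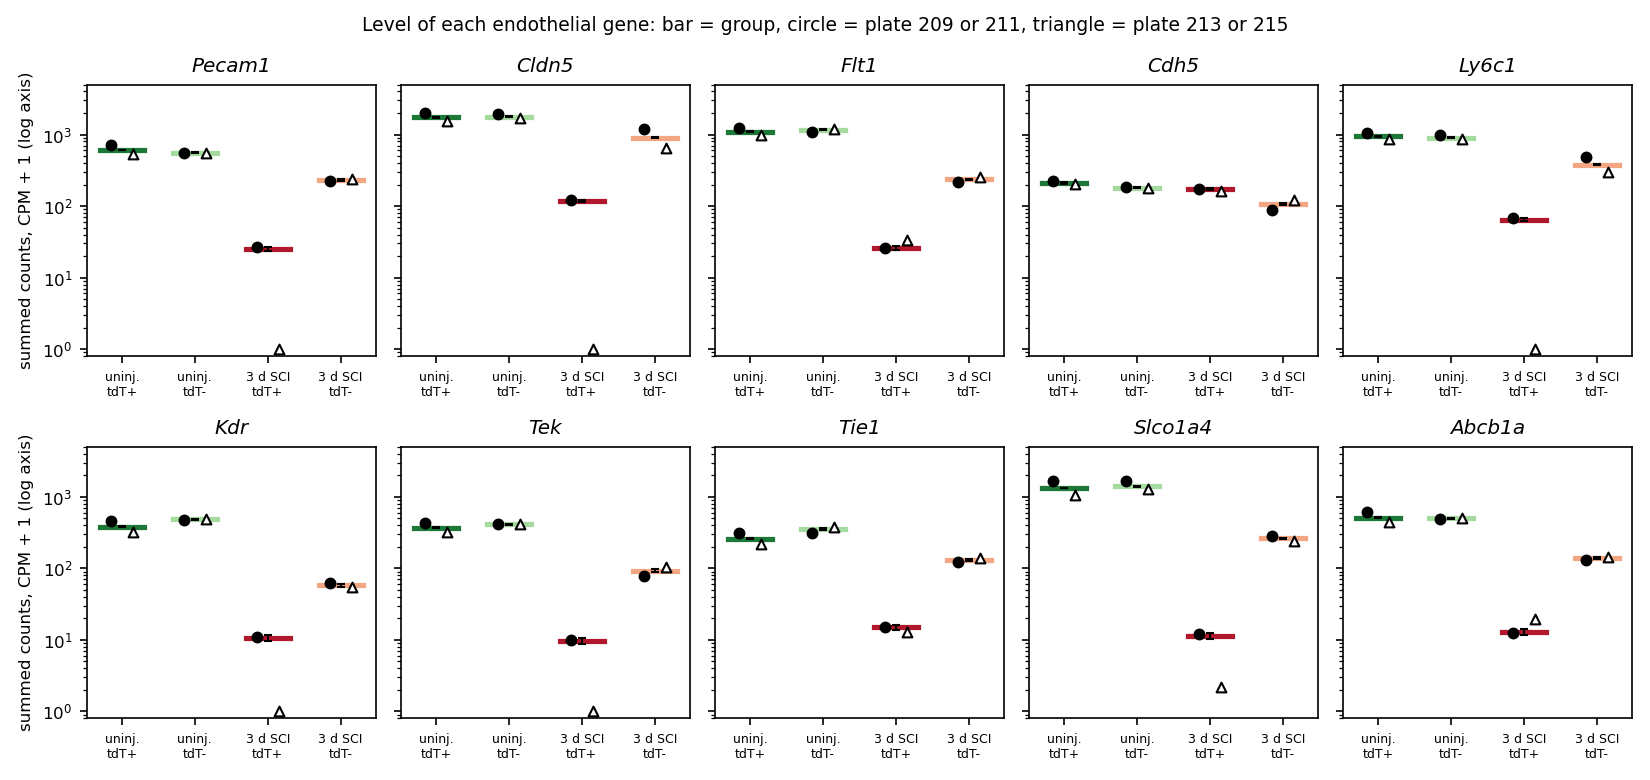
Level of each of the 10 endothelial genes as CPM + 1 on a log axis in the 4 groups (tdT, tdTomato). Coloured bars are group sums with the exact 95% Poisson interval in black, circles are plates 209 (uninjured) and 211 (SCI), triangles are plates 213 and 215. All but 1 of the genes sit lowest in injured tdTomato+EGFP+ cells, for example *Slco1a4* at 10.4 CPM, whereas *Cdh5* is at 171 CPM there.

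Junction and adhesion genes were examined first. In the uninjured cord *Cldn5* stood at 1729.7 CPM (1998 and 1525 on the 2 plates) in the tdTomato+EGFP+ sort and 1772 CPM (1906 and 1711) in the tdTomato-EGFP+ sort. At 3 days its level was 115.4 CPM in tdTomato+EGFP+ cells, with 121.98 CPM on plate 211 and no count on plate 215, and at 902 CPM (1195 and 649) in tdTomato-EGFP+ cells. The uninjured plates thus overlapped between the sorts, and the injured plates did not. *Pecam1* was likewise lowest in injured tdTomato+EGFP+ and next lowest in injured tdTomato-EGFP+ cells, with 606 CPM (710.4 and 527) and 552 CPM (554 and 552) before injury and 24.3 CPM (25.7 and 0) and 231 CPM (222 and 239) at 3 days. A single cell gave 71.1% of the *Pecam1* counts of the injured tdTomato+EGFP+ group, and 51.6% of its *Cldn5* counts came from 1 cell. *Cdh5* was instead lowest in injured tdTomato-EGFP+ cells: it stood at 209.8 CPM (222 and 200.5) and 180.1 CPM (182 and 179) before injury, at 171 CPM (171 and 160.4) in injured tdTomato+EGFP+ cells and at 105.7 CPM (86.5 and 122.3) in injured tdTomato-EGFP+ cells.

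The 4 receptor genes were all low in injured tdTomato+EGFP+ cells. *Flt1* was at 1098 CPM (1249 and 984) and 1164 CPM (1089 and 1199) in the uninjured sorts and at 25.2 CPM (24.8 and 32.2) and 235 CPM (216 and 251) at 3 days. *Kdr*, the main signalling receptor of the pair, had 379.7 CPM (463 and 316) and 483 CPM (472 and 488) before injury, and 9.54 CPM (10.1 and 0) and 56.97 CPM (61.3 and 53.2) after it. The plates of injured and uninjured cells did not overlap for either gene. *Tek* was at 369 CPM (428 and 324) and 411 CPM (417 and 409) in the uninjured sorts, and at 8.61 CPM (9.10 and 0) and 91.96 CPM (78.1 and 103.9) at 3 days. *Tie1* went from 257 CPM (312 and 215) and 353 CPM (308 and 374) to 13.97 CPM (14.1 and 11.9) and 130.9 CPM (120.97 and 139.4). On plate 215, where 3 counts in the shallow injured tdTomato+EGFP+ cells would be 1.79 CPM, *Pecam1*, *Cldn5*, *Ly6c1*, *Kdr* and *Tek* had no count, so a lower level there was not measurable at this depth.

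The surface protein and the transporters, like the receptors, were lowest in injured tdTomato+EGFP+ cells and next lowest in injured tdTomato-EGFP+ cells. *Ly6c1* had 945 CPM (1056 and 860.4) and 903 CPM (983 and 868) before injury and 63.1 CPM (66.7 and 0) and 379 CPM (476 and 295) at 3 days. *Slco1a4* had the widest span of the 10 genes, from 1319 CPM (1649.6 and 1068) and 1401 CPM (1636 and 1295) in uninjured cells to 10.4 CPM (10.9 and 1.19) and 262 CPM (286 and 241) in injured cells. *Abcb1a* was at 509.8 CPM (605 and 437) and 500.2 CPM (481 and 509), then at 11.8 CPM (11.4 and 18.5) and 138.01 CPM (130.6 and 144.4). Of the related genes, *Ly6c2* was at 3.73 CPM or less, *Abcb1b* at 8.33 CPM or less and *Slco1a5* at 10.9 CPM or less. The more distant *Ly6a* and *Ly6e* were abundant, with *Ly6a* at 985 CPM in both uninjured sorts and *Ly6e* at 848 and 761 CPM there. After SCI *Ly6a* was at 107.1 CPM in the tdTomato+EGFP+ and 634 CPM in the tdTomato-EGFP+ sort, and *Ly6e* at 170.6 and 328 CPM. In the injured tdTomato+EGFP+ group *Slco1a5* (10.9 CPM) and *Slco1a4* (10.4 CPM) were of like size. Per kilobase of exon, *Cldn5* had the highest level of the 10 genes in all 4 groups, from 81.5 to 1252 CPM per kb, and *Kdr* the lowest in 3 of them. In uninjured tdTomato-EGFP+ cells *Cdh5* (42.9 CPM per kb) lay below *Kdr* (53.5 CPM per kb). Levels per kilobase treat the counts as reads along the whole transcript, and whether they are reads or molecules is not given in the sources used here.

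All 10 genes lie on the primary chromosomes of the RefSeq annotation of GRCm38.p6, the assembly to which mm10, the build in the submitters' processing notes, corresponds. *Cldn5* occupies chromosome 16 from 18776847 to 18778262 on the plus strand and *Tie1* chromosome 4 from 118471191 to 118489849 on the minus strand. *Abcb1a* was the sole member with an exon of another gene over its own, *Gm42686*, which had 0 counts in all 4 groups. Promoter windows of 8 of the 10 genes were matched by symbol in RefSeq. Since 9 of the genes were lowest in injured tdTomato+EGFP+ cells and next lowest in injured tdTomato-EGFP+ cells, the 250 bases before the start are shown for the gene with the highest level per length and for *Tie1*, the one whose window held a searched motif. The capitals mark a match to CCACACCC, a motif of KLF factors, which lay from 73 to 66 bases before the *Tie1* start on its own strand and occurs in 3.2% of 32536 such windows.
Cldn5, GRCm38.p6, chr16:18776597-18776846, plus strand: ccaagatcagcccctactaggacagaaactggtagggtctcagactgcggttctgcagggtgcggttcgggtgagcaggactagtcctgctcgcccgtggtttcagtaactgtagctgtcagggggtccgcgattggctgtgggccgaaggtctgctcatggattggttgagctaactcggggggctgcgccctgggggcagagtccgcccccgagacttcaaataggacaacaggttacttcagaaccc
Tie1, GRCm38.p6, chr4:118489850-118490099, minus strand: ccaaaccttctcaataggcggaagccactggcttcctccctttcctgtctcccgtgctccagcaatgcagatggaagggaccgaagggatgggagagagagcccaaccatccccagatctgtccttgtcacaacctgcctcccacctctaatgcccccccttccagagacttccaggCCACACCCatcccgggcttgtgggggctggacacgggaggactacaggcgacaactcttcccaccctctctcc
CAGGAAG and ACCGGAAG, motifs of ETS factors, and ACAATGG, a motif of SOX factors, were searched on both strands too and had 0 matches in the 9 windows of these 8 genes (2 windows for *Ly6c1*), against 10.8%, 1.74% and 3.03% of all windows. This says only that these letters are not in these windows. The windows of *Flt1* and *Kdr* lay inside the genes' spans, and those of *Ly6c1*, *Tek* and *Slco1a4* at least partly. They thus do not lie before the outermost starts of these genes.

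The first comparison asked whether the GLAST-marked cells of the uninjured cord differ from the other EGFP+ cells in endothelial transcripts. The difference was small: the median log2 difference of the 10 genes, tdTomato+ minus tdTomato-, was -0.06 (plates -0.25 and 0.09), where the median over 11156 genes at 10 CPM or more was 0.01. None of the 10 genes differed by 1 or more in either direction, against a background of 3.94% of genes lower and 4.43% higher by that much. The most different member was *Tie1* at -0.46, with -0.80 on one plate and 0.02 on the other, and only *Cdh5* was higher (0.22, plates 0.16 to 0.29) and *Kdr* lower (-0.35, plates -0.62 to -0.03) on both plates, in differences of log2(CPM + 1).

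At 3 days the same comparison gave a median of -3.15, and 9 of the 10 genes were lower by 1 or more in tdTomato+EGFP+ cells, where 20.5% of 10656 genes were lower and 5.55% higher by that much. The differences of these 9 genes ran from -2.46 for *Kdr* to -4.53 for *Slco1a4*, a 23.1-fold lower level, and all 9 were lower on both plates. *Cdh5* was the exception and was 1.61-fold higher in tdTomato+EGFP+ cells (log2 difference 0.69, plates 0.39 and 0.98). The median over all genes was -0.33 in this comparison. With TMM factors or DESeq2 size factors in place of total counts that median became 0.05 or 0.20, the 9 genes stayed lower by 1 or more, and *Cdh5* was higher by 1.08 or 1.22. The higher share of the genes past 1 in either direction was 21.3% with total counts and 43.4% or 53.1% with the other scalings. Without plate 215, where 5 members had no count, the members' median was -3.04. For most of the 9 lower genes the injured tdTomato+EGFP+ level rested largely on 2 cells, as given below for the injury comparison.

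The second comparison followed each sorted population from the uninjured to the injured cord. In tdTomato+EGFP+ cells all 10 genes were lower after SCI and 9 were lower by 1 or more, with a median of -4.88, where 37% of 11446 genes were lower and 13.3% higher by that much and the median over all genes was -0.59. *Slco1a4* was 116.1-fold lower and *Flt1*, *Abcb1a*, *Tek* and *Kdr* were 36.1- to 42.0-fold lower, whereas *Ly6c1* and *Cldn5* were 14.7- and 14.9-fold lower. For *Cldn5*, *Ly6c1* and *Slco1a4* these folds rest on 2 injured cells with 8 or more members. The 2 cells held 3567 of the group's 3593 *Cldn5* counts, 1900 of 1966 *Ly6c1* counts and 315 of 323 *Slco1a4* counts. *Flt1* depended less on them. In thinned cells with at most 2 of the other genes *Flt1* stood at 20.8 CPM, against 25.2 CPM in the group. *Abcb1a* depended on them more than *Flt1*, at 4.60 CPM in such cells, against 11.8 CPM in the group. *Kdr* and *Tek* were at 1.35 and 1.51 CPM in such cells, against 9.54 and 8.61 CPM. *Pecam1* and *Tie1* were at 0.64 and 1.96 CPM in such cells, against 24.3 and 13.97 CPM. With each gene's highest cell in each group left out, the log2 differences were -4.90 for *Cldn5*, -4.85 for *Ly6c1* and -8.18 for *Slco1a4*, and the members' median was -5.92. The members' median was -4.80 without plate 215 and -8.55 without plate 211, where only the shallow cells are left. *Cdh5* differed by -0.29 (plate pairs -0.47 to -0.22) with total counts and by 0.38 or 0.52 with TMM factors or DESeq2 size factors, so its direction depended on the scaling. The higher share of genes past 1 moved from 26.5% to 52.1% and 57.8% with these scalings, and the members' median was -4.22 and -4.09.

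The 2 injury comparisons share no cells, but each shares its groups with the sort comparisons. In tdTomato-EGFP+ cells all 10 genes were also lower after SCI, 8 of them by 1 or more, against a background of 18.2% of 11404 genes lower and 11.5% higher. The median was -1.64 (plate pairs -1.79 to -1.61), and the median over all genes was -0.20. *Kdr* was 8.35-fold lower, *Slco1a4* 5.34-fold, *Flt1* 4.95-fold and *Tek* 4.43-fold. *Cldn5* (-0.97, plate pairs -1.55 to -0.52) and *Cdh5* (-0.76, plate pairs -1.06 to -0.55) were the 2 genes short of 1. With TMM factors or DESeq2 size factors the members' median was -1.35 or -1.40, 6 or 8 members were lower by 1 or more, and the higher share of genes past 1 moved from 38.6% to 56.8% or 53.8%.

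The injury difference was larger in tdTomato+EGFP+ than in tdTomato-EGFP+ cells for 9 of the 10 genes. The difference of the 2 injury effects had a median of -3.00 over the members and ran from -2.11 for *Kdr* to -4.44 for *Slco1a4* in these 9, all in the same direction in the 4 plate pairs. Over 12069 genes, 25.9% were lower and 6.5% higher by 1 or more in this difference, and the median was -0.39. For *Cdh5* the difference was 0.47 (plate pairs 0.10 to 0.82). The difference was not tested, since each group is 1 sample.

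At equal depth most cells held either nearly all of the endothelial genes or few of them. Each cell was thinned to 20000 counts to put cells on 1 depth, which left out 13, 17, 22 and 1 cells of the 4 groups. In the uninjured cord 57.2% of tdTomato+EGFP+ and 50% of tdTomato-EGFP+ cells then held a count of all 10 genes. At least 5 genes were found in 79.3% of uninjured tdTomato+EGFP+ cells (interval 71.8 to 85.6%, plates 82.2% and 76.4%) and in 76% of tdTomato-EGFP+ cells (66.4 to 83.98%, plates 72.1% and 78.9%). At 3 days the share was 2% in tdTomato+EGFP+ cells (0.243 to 7.04%; 2 of 87 cells on plate 211 and 0 of 13 on plate 215, which allows up to 23.1%) and 24.04% in tdTomato-EGFP+ cells (16.2 to 33.4%, plates 20.7% and 28.3%). Without thinning the shares were 86.7%, 72.6%, 4.92% and 40%. At this depth 5 to 7 genes were found in 6, 4, 0 and 1 cells of the 4 groups, and the injured tdTomato-EGFP+ group had 24 cells with 8 or more genes, 66 with 0 to 2 and 14 between. The gap depended on depth: without thinning 5 to 7 genes were found in 21, 8, 4 and 15 cells, and the injured tdTomato-EGFP+ group had 27 cells with 8 or more genes, 19 with 0 to 2 and 59 between.

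**Figure D2:**
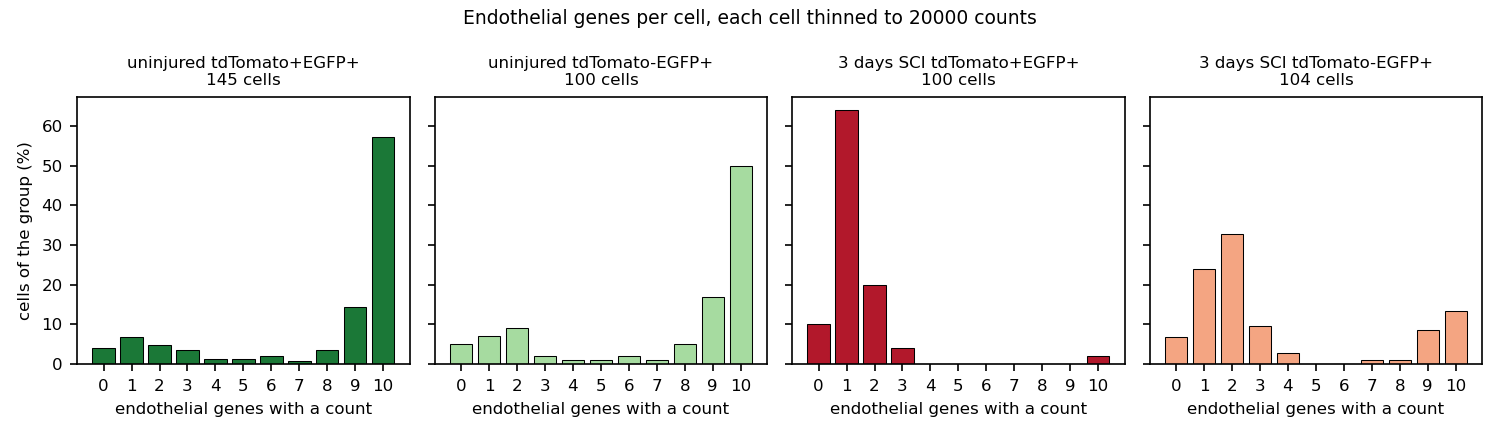
Number of the 10 endothelial genes with a count in a cell (horizontal axis) and the share of the group's cells in percent (vertical axis), after thinning each cell to 20000 counts. Uninjured cells pile up at 10 genes, injured tdTomato+EGFP+ cells at 1 gene, and injured tdTomato-EGFP+ cells form 2 separate humps with 23.1% of cells at 8 or more genes.

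Cells rich in endothelial genes also carried pericyte genes. Uninjured cells with 8 or more of the endothelial genes held 12403 CPM (tdTomato+EGFP+, 59 and 50 cells on the 2 plates) and 13394 CPM (tdTomato-EGFP+, 72 cells) of 9 pericyte genes, next to 9854 and 9910.0 CPM of the 10 endothelial genes. *Pdgfrb* had a count in 98.2% and 100% of these thinned cells. Their median depth was 271959 and 283816 counts, with 7344 and 7246 genes, against 373327 and 200328 counts and 6460.0 and 5787 genes in uninjured cells with 0 to 2 endothelial genes. Those latter cells held 16822 and 8913 CPM of 8 fibroblast genes and 638 and 10098 CPM of 6 smooth muscle genes. The 13 and 7 uninjured cells with 3 to 7 endothelial genes held 13849 and 15847 CPM of the pericyte genes. Their endothelial genes summed to 1329 and 1862 CPM, so pericyte genes did not rise with endothelial genes from there. Cells rich in endothelial genes held 291 and 142.9 CPM of the fibroblast genes. Summed over 5 genes each, oligodendrocyte, astrocyte, immune and neuronal genes reached at most 124.7 CPM in these cells. Their part in the endothelial counts was not tested, nor was that of doublets, since no doublet caller was run on cells sorted singly into wells.

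The split by pericyte genes showed where the groups differed. The rule, chosen after the values were seen, took thinned cells with at least 5 of the 9 pericyte genes (*Cspg4*, *S1pr3*, *Cd248*, *Kcnj8*, *Abcc9*, *Rgs5*, *Vtn*, *Anpep* and *Atp13a5*). In the uninjured cord 92.5% of 120 such tdTomato+EGFP+ cells (interval 86.2 to 96.5%; 59 of 63 on plate 209 and 52 of 57 on plate 213) and 76 of 85 such tdTomato-EGFP+ cells (89.4%, 80.8 to 95.04%) held 5 or more endothelial genes. After SCI it was 25 of 75 tdTomato-EGFP+ cells (33.3%, 22.9 to 45.2%), with 12 of 43 on plate 211 and 13 of 32 on plate 215. Only 12 injured tdTomato+EGFP+ cells met the rule, and 2 of them held 5 or more endothelial genes. The injured pericyte-gene cells of the tdTomato- sort had a median of 7771 detected genes against 7019 in their uninjured counterparts and a median of 209582 counts against 264298. The injured tdTomato-EGFP+ cells with 0 to 2 endothelial genes still held 10606 CPM of the pericyte genes, with *Kcnj8* at 1340 CPM and *Vtn* at 3999 CPM, and 11866 CPM of the fibroblast genes.

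Cells with fibroblast genes showed few endothelial genes in every group. Of the cells with at least 5 of 8 fibroblast genes, 2 of 27, 0 of 8, 0 of 94 and 0 of 34 held 5 or more endothelial genes in the 4 groups, at median depths of 191442 to 314238 counts. The 94 cells are most of the thinned injured tdTomato+EGFP+ group. Of the cells with at least 4 of 6 smooth muscle genes, 11 of 15 and 5 of 19 did so in the uninjured tdTomato+ and tdTomato- sorts, and 0 of 8 and 5 of 18 after SCI. The low sums of the injured tdTomato+EGFP+ group thus stood beside a makeup of 12 pericyte-gene and 88 other thinned cells, against 120 and 25 before injury, and those of the injured tdTomato-EGFP+ group beside 75 and 29, against 85 and 15. Lower endothelial counts per cell and a different mix of sorted cells enter the same group sums, and their separate parts were not tested.

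**Figure D3:**
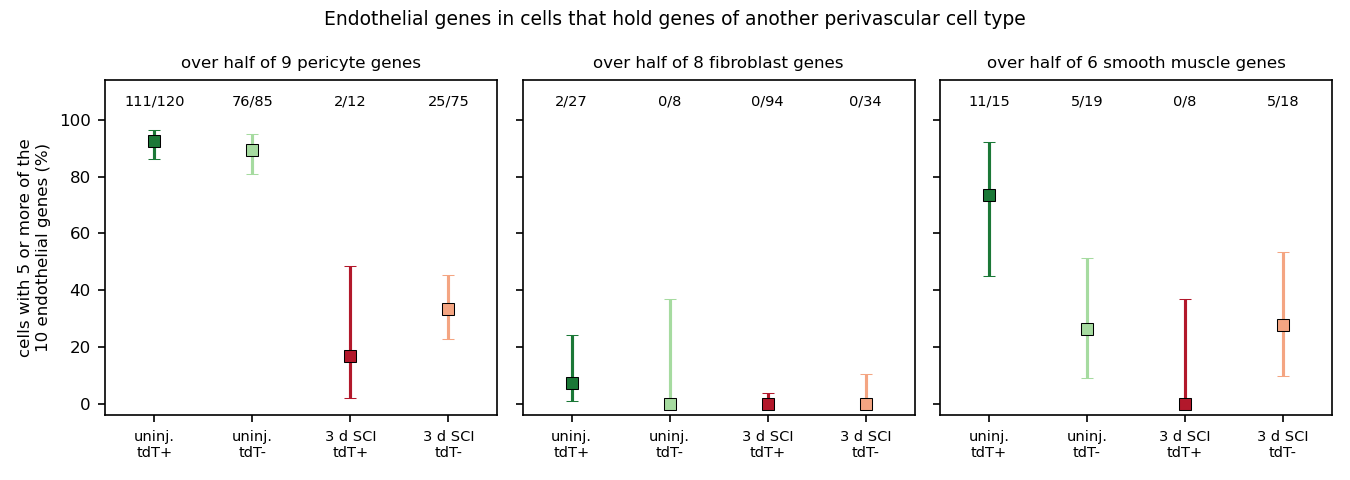
Share of cells with 5 or more of the 10 endothelial genes (percent, vertical axis) among thinned cells that hold at least 5 of 9 pericyte genes, 5 of 8 fibroblast genes or 4 of 6 smooth muscle genes, in the 4 groups (tdT, tdTomato). Squares are shares, bars are exact 95% binomial intervals and the numbers above are cells. In pericyte-gene cells the share is 92.5% and 89.4% in uninjured cord and 33.3% in injured tdTomato-EGFP+ cells, and in fibroblast-gene cells it is at most 7.41%.

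Each gene was then set against the other 9. In cells with 7 or more of the others, each gene had a count in 84% to 100% of cells in every group. In cells with 2 or fewer of the others, most genes were rare: *Kdr* was found in 0 of 23, 0 of 21, 1 of 94 and 5 of 68 cells of the 4 groups, and *Pecam1* in 2 of 24, 1 of 22, 2 of 95 and 2 of 66. *Cldn5* was found in 7 of 26 and 6 of 22 such cells in the uninjured cord, but at 10.5 and 10.04 CPM, against 2303 and 2283 CPM in cells with 7 or more of the others. *Ly6c1* was found in 9 of 22 uninjured tdTomato-EGFP+ cells with few other endothelial genes, at 211 CPM, against 1124 CPM in the cells with many.

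*Cdh5* and *Flt1* departed from this pattern, in different sorts. *Cdh5* was found in 78 of 98 injured tdTomato+EGFP+ cells with at most 2 of the others (79.6%; 166.5 CPM, with 167 CPM on plate 211 and 162 CPM on plate 215), but in 13 of 69 injured tdTomato-EGFP+ cells (18.8%; 35.7 CPM). The uninjured sorts stood in the same order, with 14 of 26 tdTomato+EGFP+ and 1 of 21 tdTomato-EGFP+ cells. By plate, 9 of 10 such uninjured tdTomato+EGFP+ cells had a count on plate 209 and 5 of 16 on plate 213. The 78 *Cdh5* cells held 326 CPM of the pericyte genes and 21888 CPM of the fibroblast genes, and the 20 cells with no *Cdh5* count held 1888 and 23702 CPM. The 78 cells also held 559 CPM of 28 other endothelial genes, against 879 CPM in the 20 cells. The 13 injured tdTomato-EGFP+ cells with *Cdh5* held 459 CPM of the pericyte genes and 13238 CPM of the fibroblast genes. The 56 such cells without it held 11941 and 11772 CPM. The sorts thus compare different mixes of cells here, and the part of that mix was not tested. *Flt1* was found in 45 of 74 injured tdTomato-EGFP+ cells with few of the other genes (60.8%; 141.9 CPM, with 116.5 CPM on plate 211 and 168 CPM on plate 215) and in 17 of 96 injured tdTomato+EGFP+ cells (17.7%; 20.8 CPM). The 45 *Flt1* cells held 11045 CPM of pericyte genes and 5802 CPM of fibroblast genes, and the 29 cells with no *Flt1* count held 9772 and 20169 CPM. *Abcb1a* was found in 14 of 70 such injured tdTomato-EGFP+ cells, which held 27148 CPM of fibroblast genes and 1793 CPM of pericyte genes.

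**Figure D4:**
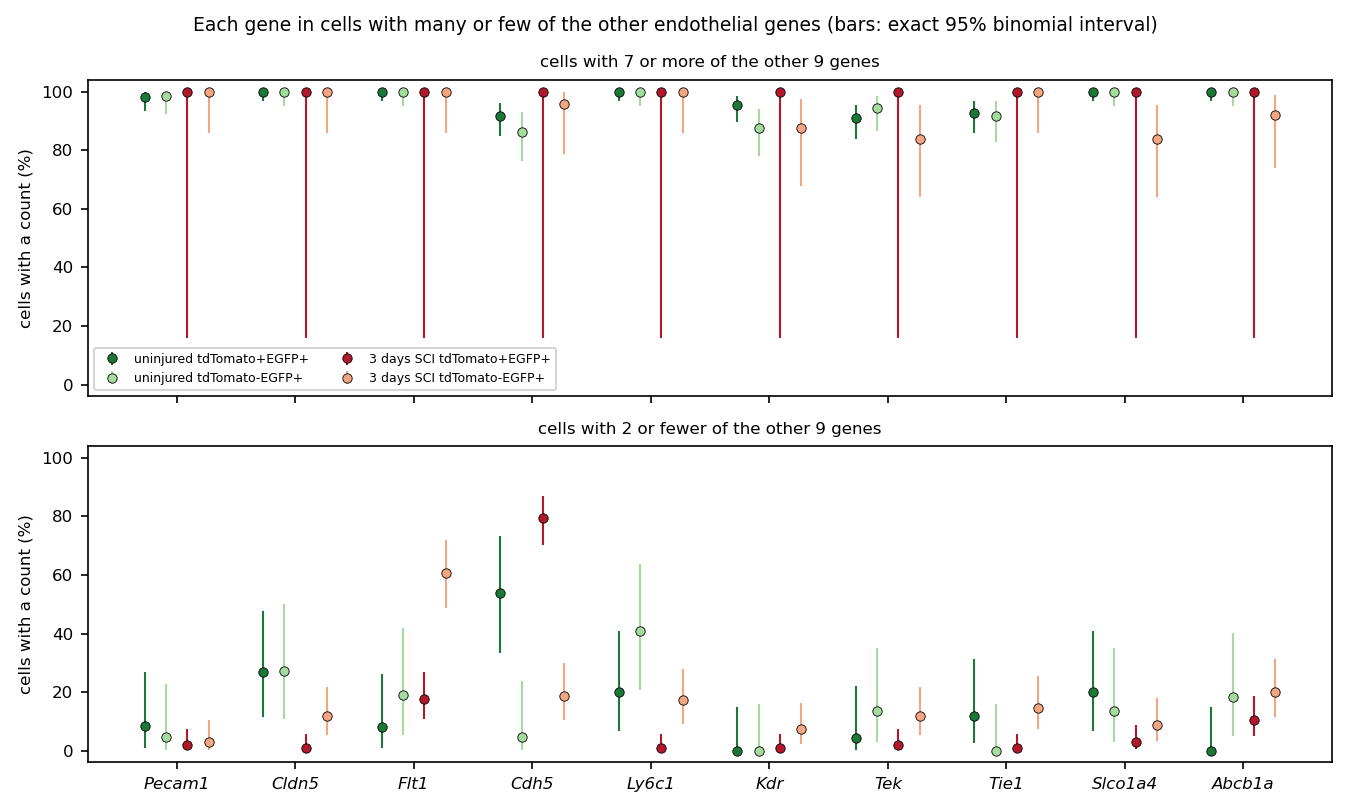
Share of thinned cells with a count of each gene (percent, vertical axis) among cells with 7 or more (top) and 2 or fewer (bottom) of the other 9 endothelial genes, in the 4 groups. Bars are exact 95% binomial intervals, wide for injured tdTomato+EGFP+ cells in the top panel, where there are 2 cells. In the bottom panel *Cdh5* stands at 79.6% in injured tdTomato+EGFP+ cells and *Flt1* at 60.8% in injured tdTomato-EGFP+ cells.

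The correlation of each gene with the mean of the other 9 across the cells of a plate ordered the genes in the same way. Pearson's r on ln(1 + counts per 10000), averaged over the 4 plates, was highest for *Cldn5* (0.92) and *Pecam1* (0.89) and lowest for *Flt1* (0.74) and *Cdh5* (0.53), and lay from 0.80 to 0.87 for the others. For *Cdh5* it was 0.61 and 0.64 in the uninjured sorts, 0.17 in injured tdTomato+EGFP+ cells and 0.78 in injured tdTomato-EGFP+ cells. These values describe 502 cells that share libraries and differ in depth.

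The 24 injured tdTomato-EGFP+ cells with 8 or more endothelial genes held these genes in other proportions than uninjured cells. Pooled over plates, the 10 genes summed to 9254 CPM in them, against 9854 and 9910.0 CPM in the corresponding uninjured cells. The sum pools 11 cells of plate 211 and 13 of plate 215, whose levels differed, so it does not describe each plate. *Cldn5* (below) and *Ly6c1* (2064 and 801 CPM) were higher on plate 211, whereas *Cdh5*, *Tek* and *Tie1* were higher on plate 215. A single cell gave 18.5% of the endothelial counts on plate 211. All these cells were chosen by the same 10 genes, so a like sum is partly set by the rule. *Cldn5* made up 40.1% of these counts (plates 46.1% and 33.2%), against 23.4% and 23.04% in the uninjured sorts, where the 4 plate values ran from 22.6 to 24.025%. A share depends on the other genes too. The *Cldn5* level was 5779 CPM on plate 211 but 2362 CPM on plate 215, within the 2127 to 2571 CPM of the uninjured plates. *Flt1* made up 5.86% (plates 4.8% and 7.1%), against 14.6% and 15.0%. Its level was 599 and 506 CPM on the injured plates, against 1361 to 1537 CPM on the uninjured plates. *Slco1a4* made up 11.6%, against 17.9% and 18.5%, *Kdr* 2.38% against 5.16% and 6.34%, and *Abcb1a* 4.04% against 6.95% and 6.53%. *Ly6c1*, *Pecam1* and *Tie1* made up 14.04%, 9.97% and 4.76%, against 11.3 to 12.8%, 7.17 to 8.20% and 3.41 to 4.65%. These 3 shares differed between the injured plates, with 16.5% and 11.3% for *Ly6c1*, 8.07% and 12.2% for *Pecam1* and 3.32% and 6.41% for *Tie1*, and 1 injured plate lay near or within the uninjured values for *Pecam1* (6.95 to 8.26%), *Tie1* (3.32 to 5.02%) and *Ly6c1* (11.3 to 13.3%). Between cells the spread was wide, and *Cldn5* took 20.9 to 77.8% of the counts of single injured cells and 3.71 to 57.6% of single uninjured cells. The most abundant cell gave 9.91% of the injured counts. Only 2 injured tdTomato+EGFP+ cells held 8 or more genes, both on plate 211, with *Cldn5* at 44.5% and *Slco1a4* at 3.93% of their endothelial counts.

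**Figure D5:**
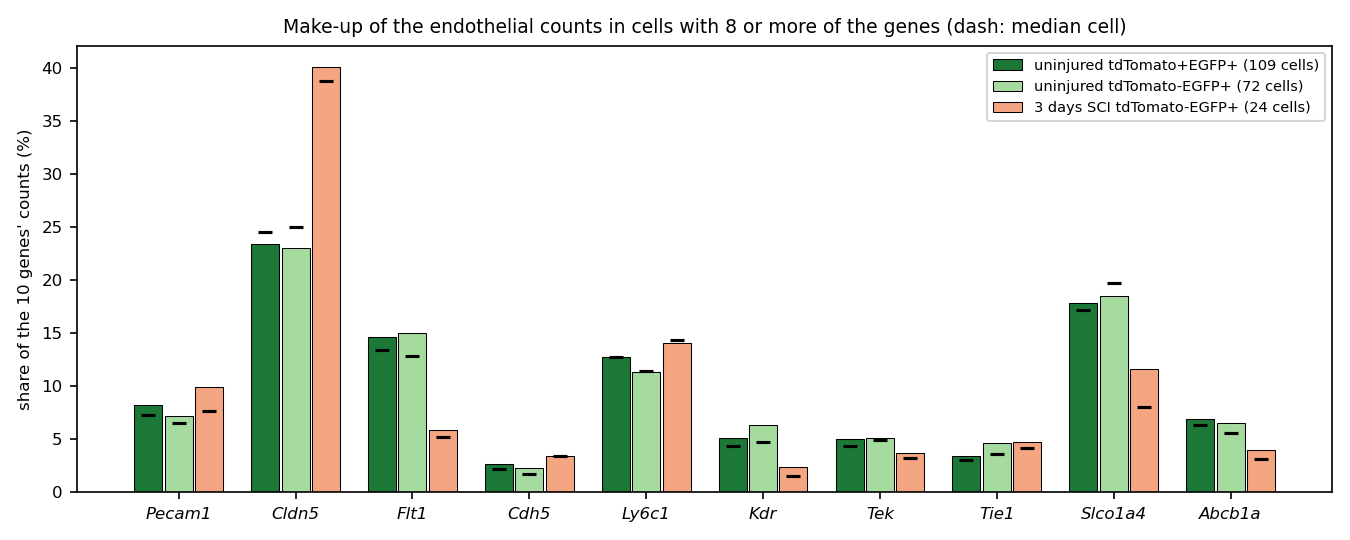
Share of each gene in the counts of the 10 endothelial genes (percent, bars) in cells with 8 or more of the genes, for uninjured tdTomato+EGFP+ (59 and 50 cells by plate), uninjured tdTomato-EGFP+ (72 cells) and injured tdTomato-EGFP+ cells (24 cells), with dashes for the median cell. *Cldn5* stands at 40.1% in the injured cells and *Flt1* at 5.86%, against 23.04 to 23.4% and 14.6 to 15.0% in the uninjured cells.

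Cells with high *Pecam1* held a minor share of the endothelial counts. The 34 cells with *Pecam1* over 1 on the ln(1 + counts per 10000) scale and over *Pdgfrb* (21, 11, 0 and 2 in the 4 groups) held 18.5%, 15.6%, 0% and 8.22% of the groups' counts of the 10 genes. In the remaining uninjured cells *Cldn5* was still at 1599 and 1714 CPM and *Pecam1* at 540.3 and 483 CPM, and 76.4% and 73.9% of thinned cells held 5 or more endothelial genes. The uninjured high-*Pecam1* cells also carried pericyte genes, with *Kcnj8* at 586 and 1165 CPM and *Vtn* at 2139 and 2239 CPM. In the remaining uninjured cells these were higher, with *Kcnj8* at 1496 and 1692 CPM and *Vtn* at 3375 and 3243 CPM. *Rgs5* was at 2918 and 4028 CPM in the high-*Pecam1* cells and at 3281 and 3713 CPM in the rest.

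Most other endothelial genes were lower after SCI too. Of 28 further endothelial genes, 26 of 27 at 10 CPM or more were lower by 1 or more after SCI in tdTomato+EGFP+ cells (median -4.06), as were 21 of 28 in tdTomato-EGFP+ cells (median -1.65). Of 16 barrier genes, 16 and 15 were lower by 1 or more, with medians of -3.55 and -2.09, among them the glucose transporter *Slc2a1* (1466 and 1419 CPM in uninjured cells, 105.6 and 548 CPM after SCI) and the anion transporter *Slc22a8* (549.5 and 552 CPM, then 2.96 and 51.5 CPM). Arterial genes were lower by 1 or more in 5 of 6 and 4 of 6 cases. Of the venous genes at 10 CPM or more, 2 of 4 and 1 of 4 were lower and 1 of 4 higher in each sort. The venous gene *Vwf* (von Willebrand factor) had 310.6 and 364 CPM before injury, 21.3 CPM in injured tdTomato+EGFP+ cells and 321 CPM in injured tdTomato-EGFP+ cells. The backgrounds for these counts are those of the 2 injury comparisons above.

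Genes of sprouting endothelium and the ligands of the receptors were mixed in direction. Of 5 sprouting genes at 10 CPM or more, 2 were lower and 2 higher by 1 or more after SCI in tdTomato+EGFP+ cells, and 1 was lower and 1 higher in tdTomato-EGFP+ cells. Among the ligands the counts were 1 lower and 2 higher of 4, and 1 lower and 1 higher of 5. *Angpt2* and *Pgf* stand in both lists, so the counts for sprouting genes and ligands are not separate. The background for the tdTomato+ sort was 37% of genes lower, with 13.3% higher. For the tdTomato- sort it was 18.2% lower, with 11.5% higher. Lists this short cannot be set apart from these shares. *Esm1*, a gene of endothelial tip cells, had 4.87 and 13.3 CPM before injury and 255 and 78.9 CPM at 3 days. *Angpt2*, a ligand of *Tek*, was at 59.2 and 84.2 CPM, then at 144.025 and 114.7 CPM, and *Vegfa*, a ligand of *Flt1* and *Kdr*, was at 9.28 and 4.30 CPM, then at 40.02 and 24.4 CPM. *Pgf*, a ligand of *Flt1*, had 47.03 and 75.1 CPM before injury and 4.14 CPM in injured tdTomato+EGFP+ but 121.2 CPM in injured tdTomato-EGFP+ cells. *Dll4*, a Notch ligand among the sprouting genes, was lower in both injured sorts (129.1 and 137.9 CPM, then 1.45 and 24.1 CPM).

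Across 15120 other genes with a count in 20 or more cells, the 15 whose pattern was most like the mean of the 10 members were *Egfl7* (mean r over 4 plates 0.92), *Adgrl4* (0.92), *Ptprb* (0.91), *Slco1c1* (0.88), *Ushbp1* (0.86), *Spock2* (0.86), *Slc2a1* (0.83), *Adgrf5*, *Gm12868*, *Sgms1*, *Podxl*, *Icam2*, *Ly6a*, *Afap1l1* and *S1pr1* (0.80). Of these 15, 10 stood in the other gene lists used here: *Ly6a* among the relatives of the members, and the rest among the further endothelial and barrier genes. By Spearman's measure 4 of these 15 were again among the top 15.

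Clusters were built without the members and the further endothelial, barrier, arterial, venous and sprouting genes, and 6 were found. This took out 37 of 2000 variable genes. Genes outside these lists were not removed, even where their pattern was like that of the members, so the clusters may still follow endothelial transcripts. They are named by number, since none was named from its markers. Cluster 1 held 73 and 63 cells of the uninjured sorts and 9 injured cells, and all of its thinned cells carried 8 or more endothelial genes beside 13113 CPM of pericyte genes. Cluster 5 drew 56 cells from the injured tdTomato-EGFP+ group and 2 from the injured tdTomato+EGFP+ group, with 0 from uninjured cord. It had 17269.9 CPM of pericyte genes, but 11 of its 57 thinned cells carried 8 or more endothelial genes and the median cell held 2. Cluster 6, with 29 uninjured cells and 1 injured cell, had 20337 CPM of pericyte genes and a median of 8 endothelial genes. Cluster 4 held 32 and 23 cells of the uninjured sorts and 5 injured cells, with 5760 CPM of smooth muscle and 8816 CPM of pericyte genes. Its median cell held 10 endothelial genes, and 41 of its 60 thinned cells carried 8 or more. Clusters 2 and 3 had 16661 and 26868 CPM of fibroblast genes, and 5 of 99 and 0 of 71 thinned cells carried 8 or more. A cluster of 1 treatment may reflect its plates, and injury and plate cannot be told apart.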

How the data were processed

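Single cells had been sorted into plates and sequenced by Smart-seq3, a full-length method, and the file the authors deposited holds unnormalised gene counts, with 1 column for each cell. The build in the submitters' notes is mm10. The aligner, the annotation and the nature of the counts (reads or molecules) are not given in the sources used here. Of 1968 cell columns, 503 matched the labels and 1465 were not used. The labels give 3 days after SCI where the series text gives 5, and the labels were followed. The study had removed endothelial cells by high *Pecam1* and low *Pdgfrb* and kept cells with at most 1200 genes; neither step was applied here. The 92 ERCC rows (0.03138% of counts) were left out. Plate 211 lacked 625 symbols that had 300 or more counts on the other plates. It had 420 symbols with 100 or more counts that the others lacked. None of them was in a list used here, but they can enter the shares over all genes. Plate 211 gave 94.6% of the counts of the injured tdTomato+EGFP+ group and 46.4% of those of the injured tdTomato-EGFP+ group. The part of these symbols in the shares over all genes was not tested.

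Counts were summed per group, scaled to CPM and compared as differences of log2(CPM + 1), a scale that understates the change of low genes; 10 CPM in a group was the minimum for list counts. Poisson and binomial (Clopper-Pearson) intervals are exact; a count of 0 was read as allowing 3. If the counts are PCR reads, they are not independent molecules, so intervals cover counting error only. Clustering used Seurat 5.3.0 in R 4.3.3 (1963 variable genes, 20 components, resolution 0.5). Scalings by edgeR 4.0.16 (TMM) and DESeq2 1.42.0 were alternatives. Genes named besides the members come from lists of 139 genes and from the 15 genes most like the members. The members and lists were chosen with earlier results of these data known. The calculations were tested on simulated data.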

Additional observations from a re-analysis of the deposited data

How the results depend on the processing

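Each group is 1 sample, so these values carry no test, and values are compared with the spread over plates. Where injured tdTomato+EGFP+ cells enter, that spread was wide, with plate 215 shallow. For injury in these cells the members' median ran from -8.80 to -4.57 over the plate pairs. A move smaller than the spread is therefore a weak check there. No paired analysis was possible because the results come from no test and the replicate numbers only name cells; the sorts were compared within plates as values. Of 68 alternative values of the members' medians 60 moved by less than that spread, and of 36 alternative shares of cells 32 stayed inside the counting interval. Of the remaining values, nearly all of them for single genes, 17.7% moved, and 5 counts of members past 1 moved (3.97%). The medians after SCI and at 3 days were negative under every alternative that gave a value. In tdTomato-EGFP+ cells the injury median was -1.35 with TMM factors, -1.40 with DESeq2 size factors, -1.48 with CPM averaged over cells and -1.73 without plate 215. In uninjured cord the sort median was 0.37 over the 12 and 15 cells with at most 1200 genes; that limit left no injured tdTomato-EGFP+ cell, so the comparisons with them were not run. Without plate 211, which leaves 34 shallow injured tdTomato+EGFP+ cells, the medians were -6.24 for the sort at 3 days, -8.55 for injury in tdTomato+EGFP+ cells and -5.99 for the difference of the injury effects, and the share of injured tdTomato+EGFP+ cells with 5 or more members was 0% of 13 cells. Without thinning the shares were 86.7% in uninjured tdTomato+EGFP+ and 40% in injured tdTomato-EGFP+ cells. With 3 or more members as the rule the thinned share was 36.5% in injured tdTomato-EGFP+ and 6% in injured tdTomato+EGFP+ cells; without thinning that rule gave 96.8%, 87.2%, 36.1% and 81.9% in the 4 groups. *Cdh5* after SCI in tdTomato+EGFP+ cells was positive with TMM factors and DESeq2 size factors alone. The cause of these shifts was not tested.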
